A study of Mus musculus with 2 samples.

Results

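The CREC family comprises calcium-binding proteins of the secretory pathway, and the 5 genes described here, *Rcn1*, *Rcn2*, *Rcn3*, *Calu* and *Sdf4*, were selected on family membership with the measured ratio of *Rcn3* already known. They were 5 of 27790 genes or transcripts represented on the arrays. All 5 were among the 12540 that were detected, meaning that on both arrays at least 1 of the compared cell lines gave a signal flagged as well above background. A total of 9 probes read them, and 8 of these 9 probes were detected. A value for *Rcn3* is therefore given as a description and supports nothing about the family.

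The arrays compared a dormant DMC-derived line, B16F1-GFP-D, with the maternal line B16F1-GFP-M, where DMC stands for disseminated melanoma cells. B16F1 is a mouse melanoma line, and both lines carry a GFP transgene, were grown without treatment in the same serum-containing medium and differ in their history. B16F1-GFP-D was founded by GFP-positive cells sorted from the pooled organs of female C57BL6JRj mice. These control and vaccinated mice had remained free of tumour for 1 year after injection of B16F1-GFP cells. Vaccinated mice had received irradiated B16F1 cells expressing GM-CSF, and control mice irradiated B16F1 cells with an empty vector. The B16F1-GFP-D line goes back to 1 colony, and the sort had let through GFP-negative host cells, for which reason the cells were cloned. There were 2 two-colour arrays on 1 slide, in which both RNAs bind to the same spots: array 1 held B16F1-GFP-D in Cy3 and B16F1-GFP-M in Cy5, and array 2 had the dyes exchanged. Since separate cultures or extracts are not named in the labels, there was 1 replicate per line, no test was possible, and the SD given beside a mean is that between the 2 dye orientations, which is technical. The precision of all values is limited by the small number of arrays. Spots well above background made up 44.1 to 60.7% of each channel, and no spot was saturated. The melanocyte genes fixed for checking the cell type (*Tyr*, *Tyrp1*, *Dct*, *Pmel*, *Mlana*, *Mitf* and *Sox10*) were all measured in each line and on each array, 7 of 7.

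CREC proteins are built from repeated EF-hands, helix-loop-helix units whose loop holds a calcium ion, and bind calcium with low affinity. Reticulocalbins (*Rcn1*, *Rcn2*, *Rcn3*) reside in the lumen of the endoplasmic reticulum (ER), where a short signal at the end of the protein lets KDEL receptors return them from the Golgi apparatus. Calumenin (*Calu*) is found in the ER and is also secreted, and Cab45 (*Sdf4*) is a soluble protein of the Golgi lumen that takes part in the sorting of secreted cargo.

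Array sequences are shown for 3 of the probes, because they locate the measurement within the transcript. Both probes of *Rcn3* lie at the end of the gene on the minus strand of chromosome 7. The probe A_52_P223618 (mm9, chr7:52338593-52338652) crosses the end of the coding sequence. Its first 30 bases are given with the codons of the last 4 residues in capitals, which spell the retrieval signal HDEL and stand directly before the stop codon. The probe A_51_P398683 (chr7:52338288-52338347) starts 305 bases away, further towards the end of the transcript, and its bases 24 to 53 are given with the polyadenylation signal AATAAA in capitals. The third is a probe of *Calu*, A_52_P554670 on the plus strand (chr6:29311677-29311736), annotated to transcript variant 2 and given whole, with the codons of a 12-residue EF-hand loop in capitals.
Rcn3, A_52_P223618: ctgacaaggcacCATGATGAGCTCtgatcc
Rcn3, A_51_P398683: ctgcctaggagcAATAAAagctgttgctgg
Calu, A_52_P554670: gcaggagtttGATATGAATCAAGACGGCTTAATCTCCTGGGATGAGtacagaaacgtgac
Of the 41164 probes used, 3 held the codons of HDEL or KDEL before a stop codon, a share of 0.00729%. The other 2 belonged to *Poglut2* and *Uggt2*, with mean log2 ratios of -0.08 and -0.01. An EF-hand loop could be read in a sense frame of 11 probes (0.0267%), and AATAAA was present in 4.78% of the probes.

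Within the family, *Rcn3* was the only gene at least 2-fold apart between the lines. The probe nearest to the polyadenylation signal read *Rcn3* at a normalised log2 intensity of 9.83 in B16F1-GFP-D and 6.88 in B16F1-GFP-M on array 1. On array 2 the levels were 10.00 and 7.24. On each array the B16F1-GFP-D level thus lay far above the B16F1-GFP-M level. The 2 values of a line are dye orientations of 1 replicate. Levels were not scaled between arrays, so the lines are compared within an array. The log2 ratios, given throughout as B16F1-GFP-D over B16F1-GFP-M, were 2.95 and 2.76, with a mean of 2.85 ± 0.13 (SD between arrays), a 7.22-fold higher signal. Among the 11609 genes measured in both lines, 1 gene had a larger mean log2 ratio. Reticulocalbin-3 acts as a chaperone in the ER lumen and is known from the biosynthetic pathway of the proprotein convertase PACE4 (*Pcsk6*) and from the secretion of collagen and surfactant proteins.

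The raw signals show where the limit of the *Rcn3* measurement lies. On array 1 the spot of A_51_P398683 exceeded its local background 23.8 times in B16F1-GFP-D and 2.84 times in B16F1-GFP-M, and on array 2 these values were 22.6 and 2.82. The maternal level was well above background on both arrays but close to it. The probe over the retrieval signal, A_52_P223618, gave normalised log2 intensities of 8.11 in B16F1-GFP-D and 6.33 in B16F1-GFP-M on array 1, and of 8.38 and 6.80 on array 2. B16F1-GFP-D was again the higher line on each array. Its log2 ratios were 1.79 and 1.58, mean 1.69 ± 0.14 (SD between arrays), a 3.22-fold higher signal, with the maternal signal well above background on array 1 only. The maternal signal of this probe was 1.96 and 2.50 times its local background.

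Both *Rcn3* probes thus read a higher level in the dormant-derived line on each array. On array 1, where the maternal signal was well above background with both, their log2 ratios were 2.95 and 1.79. The difference between their mean log2 ratios was 1.17, and it includes the maternal signal of the dimmer probe on array 2, which was not well above background. With the log ratio of the scanner software, which handles the background in another way, the mean log2 ratios of the brighter and the dimmer probe were 3.76 and 3.32, and the difference was 0.44. For comparison, the SD between arrays pooled over all detected genes was 0.15 on the log2 scale. Across the series, 387 of the 12540 detected genes (3.09%) were on both arrays at least 2-fold higher in B16F1-GFP-D and 243 (1.94%) at least 2-fold lower. Counted by probes, 505 of 19141 (2.64%) were at least 2-fold higher, against 2 of the 8 detected CREC probes, both from *Rcn3*. As *Rcn3* was chosen on this contrast, nothing is read from the comparison of these shares.

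**Figure D1:**
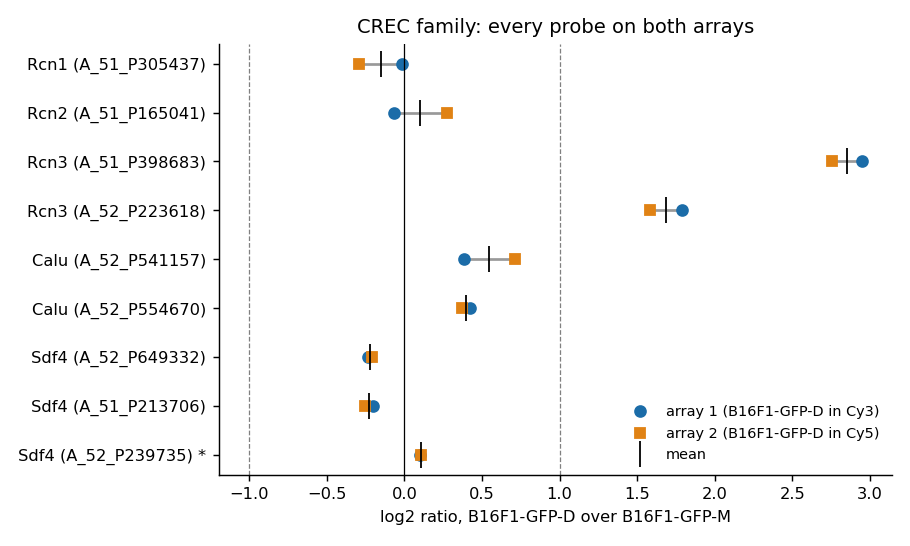
Log2 ratio (B16F1-GFP-D to B16F1-GFP-M) for all 9 probes of the CREC genes, on array 1 (circles) and array 2 (squares). Vertical marks are the mean of the 2 arrays, dashed lines mark 2-fold and the asterisk marks the *Sdf4* probe that was not well above background. Both *Rcn3* probes lie beyond 2-fold on both arrays, and the other 7 lie between the dashed lines.

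The other reticulocalbins did not share the ratio of *Rcn3*. *Rcn1* encodes reticulocalbin-1, an ER resident read by 1 probe (A_51_P305437, chr2:105227208-105227267, minus strand). Its normalised log2 intensity was 12.38 in B16F1-GFP-D and 12.39 in B16F1-GFP-M on array 1, and 12.30 and 12.59 on array 2. The levels of the lines were nearly equal on array 1 and slightly apart on array 2. Its log2 ratios were -0.02 and -0.29, mean -0.15 ± 0.20 (SD between arrays), and 69.4% of the detected genes had a mean ratio of larger size. The sign of this small value was not stable, since centring each array on its median gave a mean of 0.08.

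*Rcn2* encodes reticulocalbin-2, another ER-resident EF-hand protein, and was matched by the gene name in the array files, because its 1 probe (A_51_P165041, chr9:55906082-55906141, plus strand) carries no RefSeq accession. The normalised log2 intensities were 9.38 in B16F1-GFP-D and 9.45 in B16F1-GFP-M on array 1 and 9.51 and 9.24 on array 2. The line with the higher level changed with the dye orientation. The log2 ratios were -0.07 and 0.27, mean 0.10 ± 0.24 (SD between arrays), a mean smaller than its own spread, and 78.8% of the detected genes lay further from 0.

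*Calu* was slightly higher in B16F1-GFP-D with each of its probes. Calumenin is known to inhibit the vitamin K-dependent gamma-carboxylation of proteins and to bind fibulin-1 and thrombospondin-1. Its brighter probe, A_52_P541157 (chr6:29325916-29325975), gave normalised log2 intensities of 10.57 in B16F1-GFP-D and 10.18 in B16F1-GFP-M on array 1, and of 10.64 and 9.93 on array 2. B16F1-GFP-D was the higher line on both arrays, as for 41% of all detected genes. The log2 ratios were 0.38 and 0.71, mean 0.55 ± 0.23 (SD between arrays), a 1.46-fold higher signal below the 2-fold limit. Of the detected genes, 22.6% had a mean ratio of larger size, and 12.2% had a higher mean log2 ratio. The probe over the EF-hand loop, 14239 bases upstream in the genome, read levels of 9.37 in B16F1-GFP-D and 8.94 in B16F1-GFP-M on array 1 and of 9.28 and 8.92 on array 2. Here too B16F1-GFP-D was the higher line on both arrays. The log2 ratios of 0.43 and 0.37 had a mean of 0.40 ± 0.04 (SD between arrays). The difference of 0.15 between the means of the *Calu* probes was smaller than the SD between arrays of the brighter one.

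*Sdf4* was slightly lower in B16F1-GFP-D. Its brightest probe (A_52_P649332, chr4:155383885-155383944, plus strand) read 11.74 in B16F1-GFP-D and 11.97 in B16F1-GFP-M on array 1, and 11.69 and 11.90 on array 2, in normalised log2 intensity. With this probe the dormant-derived line was lower on both arrays, as for 42.8% of all detected genes. The log2 ratios were -0.23 and -0.21, mean -0.22 ± 0.02 (SD between arrays), a 1.17-fold lower signal. A second probe, A_51_P213706 (chr4:155383327-155383386), read 11.03 in B16F1-GFP-D and 11.24 in B16F1-GFP-M on array 1, and 10.52 and 10.78 on array 2. With this probe the dormant-derived line was lower within each array, and levels are not compared between arrays. Its log2 ratios were -0.21 and -0.26, mean -0.23 ± 0.04 (SD between arrays). A difference of this size was common, as 58.3% of the detected genes had a mean ratio of larger size. Centring each array on its median brought these means to -0.03 and -0.10. The third probe (A_52_P239735, chr4:155387237-155387296), 3352 bases beyond the brightest, was not well above background in either line on either array and gives no fold.

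The median of the mean log2 ratios of the 5 CREC genes was 0.10, beside -0.01 over all detected genes. By order of the mean, *Rcn3* was followed by *Calu*, *Rcn2*, *Rcn1* and *Sdf4*. As *Rcn3* was chosen with its ratio known, nothing is read from its distance to *Calu*. The array values of *Calu* and *Rcn2* did not overlap. The array values of *Rcn2* overlapped those of *Rcn1*, and those of *Sdf4* lay inside the range of *Rcn1*. Those of *Rcn2* and *Sdf4* did not overlap. These ranges span 2 dye orientations of 1 replicate after loess and separate no genes. With each array centred on its median, the brightest probes had -0.64 and 1.96 for *Calu*, -1.05 and 1.39 for *Rcn2* and -1.28 and 1.23 for *Sdf4*. Those ranges all overlapped. The arrays measure RNA of whole cultures, in which a higher share of cells with a transcript and more transcript per cell cannot be told apart.

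**Figure D2:**
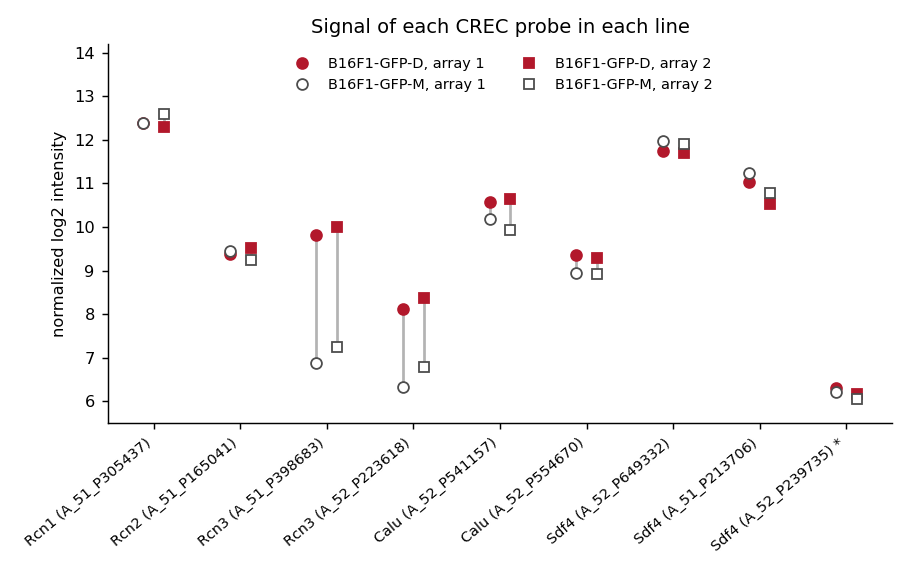
Normalised log2 intensity of each CREC probe in B16F1-GFP-D (filled) and B16F1-GFP-M (open), with array 1 as circles and array 2 as squares. Grey lines join the lines of 1 array and the asterisk marks the probe not above background. *Rcn3* shows the longest lines, from 6.88 to 9.83 on array 1 with its brighter probe, the filled circle of *Rcn1* lies behind the open one, and levels of different probes are not comparable with each other.

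**Figure D3:**
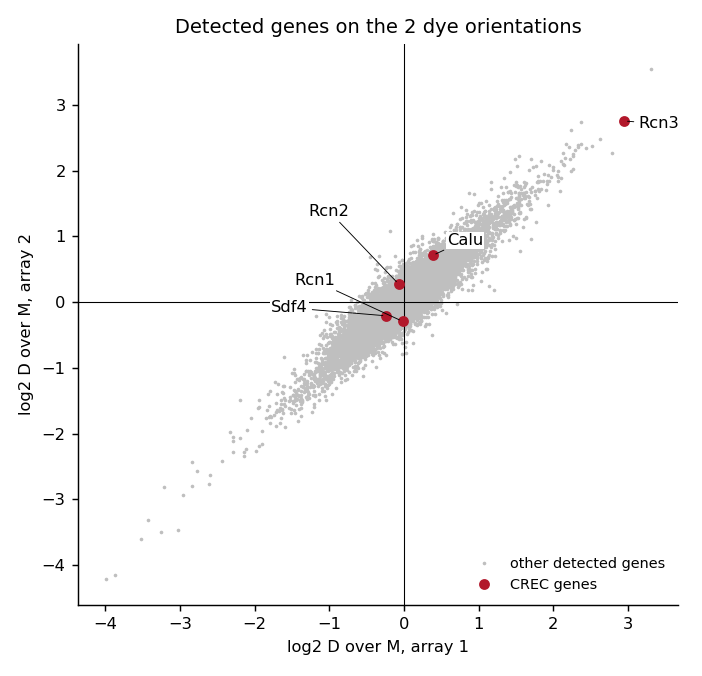
Log2 ratio between B16F1-GFP-D (D) and B16F1-GFP-M (M) of the 12540 detected genes on array 1 (horizontal) and array 2 (vertical), with the CREC genes in red. *Rcn3* lies at 2.95 and 2.76, near the upper end of the diagonal, and the other 4 CREC genes lie inside the main cloud.

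The genes whose pair of array values was most like that of *Rcn3* (2.95 and 2.76) were sought among 10453 detected genes with a RefSeq symbol by Euclidean distance over the 2 arrays. The nearest was *Kbtbd11*, a gene of a BTB-domain protein, at a distance of 0.42 with log2 ratios of 2.63 and 2.49. *Aire*, the autoimmune regulator of the thymus, lay at 0.51 with 2.78 and 2.27. *Ppargc1a*, a coactivator of mitochondrial biogenesis, lay at 0.57 with 2.38 and 2.74. *Pfkp*, a phosphofructokinase of glycolysis, lay at 0.65 with 2.43 and 2.35. Likeness over 2 arrays is a likeness in size alone, and the 4 genes named here were measured in both lines.

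The compartment in which reticulocalbins act was read from a list of 12 ER lumen chaperones, all of them detected. On both arrays 11 of them were higher in B16F1-GFP-D and 1 was lower, with a median log2 ratio of 0.76. Over all detected genes, the shares higher and lower on both arrays were 41% and 42.8%, and those at least 2-fold higher and lower were 3.09% and 1.94%. The genes past 2-fold on both arrays were 2, *Sdf2l1*, a partner of ER chaperones, with a mean log2 ratio of 1.69, and the disulphide isomerase *Pdia6*, with 1.19. All 4 probes of *Pdia6* were higher, between 1.05 and 1.57. Calreticulin (*Calr*), a high-capacity calcium store of the ER, had log2 ratios of 1.31 and 0.92 and so missed the limit on array 2. The lowest of the list was calnexin (*Canx*), the membrane-bound relative of calreticulin, at -0.07. The KDEL receptors, which retrieve proteins with signals such as HDEL, were higher on both arrays in 3 of 3 cases without reaching 2-fold, from 0.31 for *Kdelr3* to 0.72 for *Kdelr2*, with a median of 0.37.

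Genes of the unfolded protein response, the programme by which cells adjust the folding capacity of the ER, went both ways. Of 12 detected genes, 7 were higher and 4 lower on both arrays, beside 41% and 42.8% of all detected genes. The median log2 ratio was 0.32. Those at least 2-fold higher were *Sdf2l1*, which is shared with the chaperone list, *Creld2*, an ER-resident disulphide isomerase, with 1.23, and *Manf*, a secreted protein of the ER lumen, with 1.20. Those at least 2-fold lower were *Ddit3*, the transcription factor CHOP, with -2.29, the ER stress sensor *Atf6* with -1.51 (-1.21 with its other probe) and the sensor *Ern1*, encoding IRE1, with -1.08. The list thus held 3 genes past the limit in each direction. Of all detected genes, 3.09% were at least 2-fold higher and 1.94% at least 2-fold lower.

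Of 16 genes for calcium pumps, release channels and store-operated entry, 14 were detected. On both arrays 6 were higher and 3 lower, beside 41% and 42.8% of all detected genes. None was past 2-fold, beside 3.09% of all detected genes that were at least 2-fold higher and 1.94% at least 2-fold lower. The median was 0.07, and the values ran from -0.33 for *Orai3*, a channel subunit of store-operated entry, to 0.51 for *Itpr2*, an inositol trisphosphate receptor. The median of this list was -0.10 on array 1 alone, taken over the genes well above background on that array. Golgi calcium proteins, the compartment of *Sdf4*, were detected in 4 of 5 cases, with 3 higher and 1 lower on both arrays. Their median was 0.20, from -0.11 for *Nucb1* to 0.32 for *Nucb2*, which encode nucleobindins, and it was 0.10 as the median over the probes of each gene.

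A list of binding partners of CREC proteins and of gamma-carboxylation, the reaction that calumenin inhibits, held 9 genes, of which 6 were detected. None was past 2-fold, beside 3.09% of all detected genes at least 2-fold higher and 1.94% at least 2-fold lower. On both arrays 3 were higher and 2 lower, beside 41% and 42.8% of all detected genes. The median was 0.24, and it was 0.05 without the filter on dim probes. On array 1 alone it was -0.02. That setting takes every gene well above background on array 1, so it is not limited to the 6 detected genes. The highest was fibulin-1 (*Fbln1*), a partner of calumenin, at 0.61, and the lowest the carboxylase itself, *Ggcx*, at -0.36. *Gas6* had 0.59, with the maternal signal well above background on 1 array. With the log ratio of the scanner software the mean log2 ratio was 1.51 for *Gas6* and 0.62 for *Fbln1*. *Pcsk6*, the convertase known as a partner of reticulocalbin-3, was not well above background in either line.

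For collagen folding and secretion, 19 of 20 genes were detected, with a median of 0.31. On both arrays 13 were higher and 3 lower, beside 41% and 42.8% of all detected genes. Past 2-fold was 1 gene, beside 3.09% of all detected genes at least 2-fold higher and 1.94% at least 2-fold lower. The gene past 2-fold was *P4ha2*, a subunit of the collagen prolyl 4-hydroxylase, with log2 ratios of 1.79 and 1.92 and a 3.62-fold higher signal. This rested on its brighter probe, as the other probe of *P4ha2* was not well above background and read 0.05. The lowest value was -0.44 for *Plod3*, a lysyl hydroxylase. The collagen list shares *P4hb* and *Ppib* with the chaperone list, so the lists are not independent.

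**Figure D4:**
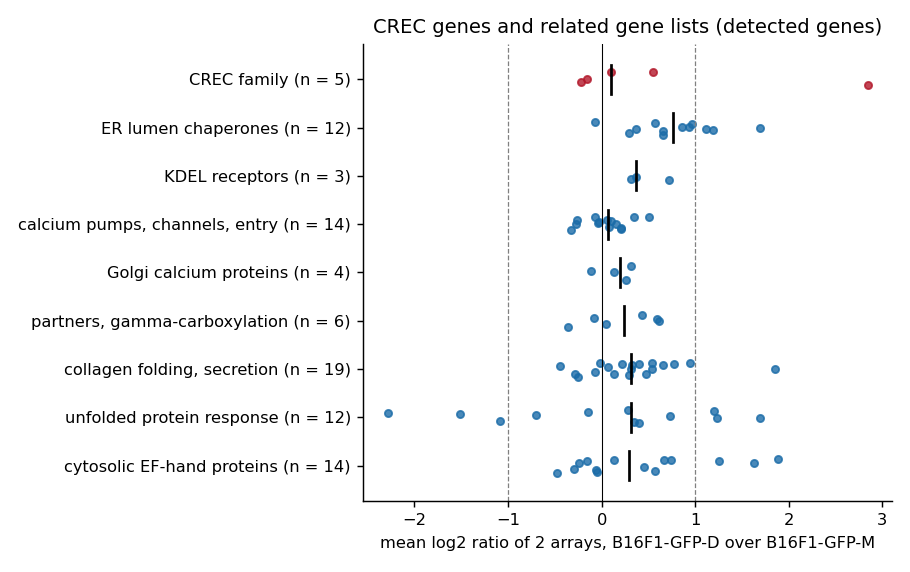
Mean log2 ratio of 2 arrays, B16F1-GFP-D over B16F1-GFP-M, for the detected genes of each list, with the CREC family in red. Vertical bars are the median of a list and dashed lines mark 2-fold. The chaperone median lies at 0.76, most values lie within 2-fold, and the CREC point at 2.85 is *Rcn3*.

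*Rcn3* is also expressed by connective tissue cells, and host cells had been present in the founding sort, so markers of other cell types were read beside it. Of 9 fibroblast markers 3 were detected. On both arrays *Pdgfrb* was well above background in B16F1-GFP-D and not in B16F1-GFP-M, at least 1.68-fold higher when set against the lowest signal well above background. *Col1a1*, with the maternal signal well above background on 1 array, had a mean log2 ratio of 0.40, and *Col1a2* of -0.33. With the log ratio of the scanner software, the mean log2 ratio was 1.97 for *Col1a1*, -0.87 for *Col1a2* and 4.10 for *Pdgfrb*. The value of *Pdgfrb* rests on a maternal signal not well above background and gives no fold. *Col3a1*, *Pdgfra*, *Dcn*, *Lum* and *Fap* were not well above background in either line, and *Thy1* was so in B16F1-GFP-M on 1 array. The summed log2 intensity of the 9 genes was 57.2 on each array in B16F1-GFP-D and 56.2 to 56.3 in B16F1-GFP-M.

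Of 5 leukocyte markers 2 were detected, *Cd68* with a mean log2 ratio of 0.44 and *Cd3e* with -0.01, each with the maternal signal well above background on 1 array, and the leukocyte-defining *Ptprc* was not. With the log ratio of the scanner software *Cd68* had a mean log2 ratio of 1.68. For the 5 genes, the summed log2 intensity was 31.7 to 32.0 in B16F1-GFP-D and 31.3 to 31.7 in B16F1-GFP-M. None of 3 endothelial markers was detected, with sums of 18.4 to 18.5 and 18.4 to 18.6. Of the 7 melanocyte genes 2 were higher and 4 lower on both arrays, beside 41% and 42.8% of all detected genes. None was past 2-fold, beside 3.09% of all detected genes at least 2-fold higher and 1.94% at least 2-fold lower. The median of the melanocyte genes was -0.34, with the lowest value, -0.92, for *Mitf*. Their summed log2 intensity was 98.3 and 99.1 in B16F1-GFP-D and 101.5 and 99.7 in B16F1-GFP-M. The part of any other cell type in the *Rcn3* ratio was not tested.

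Position was examined through the 5 nearest genes with a probe on each side of each CREC gene, in the gene order of GRCm38.p6. All 10 neighbours of *Rcn3* were detected and none was past 2-fold. Their mean log2 ratios ran from -0.69 for *Snord33*, a small nucleolar RNA, to 0.54 for *Prr12*, with a median of -0.27. The genes on either side of *Rcn3* were *Nosip*, at -0.28, and *Fcgrt*, the neonatal Fc receptor, at -0.62, both slightly lower in B16F1-GFP-D.

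Of the 50 neighbours of the family 38 were detected and 2 were past 2-fold, 1 in each direction, beside 3.09% of all detected genes at least 2-fold higher and 1.94% at least 2-fold lower, and nothing particular to the neighbours is read from so few. One was *Mpped2*, the fifth gene from *Rcn1*, at -1.36, where the neighbours had a median of -0.31. The other was *Pstpip1*, an adaptor of the actin cytoskeleton in blood cells that lies next to *Rcn2*, at 1.23, with the maternal signal well above background on 1 array and a median of 0.29 for the neighbours. Around *Calu* the nearest were *Fam71f1* at 0.14 and *Opn1sw*, which was not detected, and around *Sdf4* they were *B3galt6* at 0.00 and *Tnfrsf4* at -0.06.

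**Figure D5:**
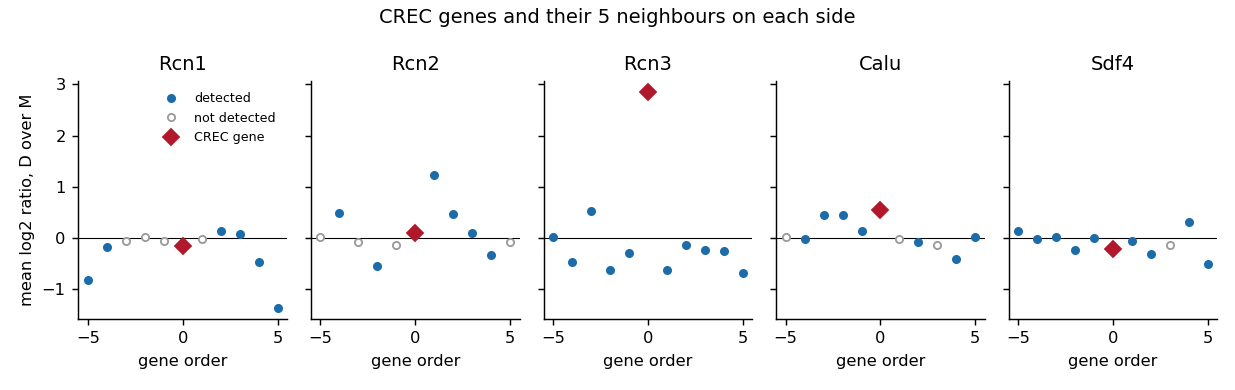
Mean log2 ratio, B16F1-GFP-D (D) over B16F1-GFP-M (M), of each CREC gene (diamond) and of its 5 neighbours on each side by gene order (filled, detected; open, not detected). *Rcn3* stands at 2.85 between neighbours from -0.69 to 0.54.

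Promoters of the 2 CREC genes that were higher with every probe on both arrays are shown, chosen after their values were seen, each as the 250 bases before the start in RefSeq (GRCm38.p6), 5′ to 3′ on the gene's strand. Capitals mark CCAAT, the box bound by NF-Y, and ACGTG, the core of the hypoxia response element, on both strands, so that CCAAT on the reverse strand reads ATTGG. The windows are chr7:45092214-45092463 (minus strand) for *Rcn3* and chr6:29347856-29348105 (plus strand) for *Calu*.
Rcn3, promoter: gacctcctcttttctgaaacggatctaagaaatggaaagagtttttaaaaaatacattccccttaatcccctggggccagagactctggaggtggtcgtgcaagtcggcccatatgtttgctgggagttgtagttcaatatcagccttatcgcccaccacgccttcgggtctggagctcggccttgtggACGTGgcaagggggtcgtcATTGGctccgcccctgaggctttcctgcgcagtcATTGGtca
Calu, promoter: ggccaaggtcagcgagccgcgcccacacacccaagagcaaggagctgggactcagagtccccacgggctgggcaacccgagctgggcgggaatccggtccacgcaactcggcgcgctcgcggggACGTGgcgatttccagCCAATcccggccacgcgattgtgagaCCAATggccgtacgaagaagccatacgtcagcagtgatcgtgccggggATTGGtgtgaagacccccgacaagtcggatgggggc
*Rcn3* held ACGTG once, 61 bases before the start, and CCAAT on the reverse strand 42 and 8 bases before it. *Calu* held ACGTG at 126 bases, CCAAT at 110 and 84 bases and, on the reverse strand, at 36 bases. The GC content was 53.2% for *Rcn3* and 66.0% for *Calu*.

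These short motifs are common. Of 32851 promoter windows of the same length 33.8% held CCAAT and 16.6% held ACGTG. *Rcn2* had 2 matches of CCAAT and none of ACGTG, and the windows of *Sdf4* had up to 1 of CCAAT and up to 3 of ACGTG. The core bound by ATF6, CCACG, was in 28.3%, with 2 matches in *Rcn3*, 4 in *Calu*, 1 in *Rcn2* and up to 2 in a window of *Sdf4*, and on the reverse strand it can overlap the hypoxia core. The E-box CACGTG, which contains the hypoxia core, was in 6.02%, and TATAAA in 12.4%. The complete ER stress response element ERSE, a CCAAT box followed after 9 bases by the ATF6 core, was in 0.113% of the windows, and ERSE-II, a CCAAT box on the reverse strand followed after 1 base by that core, in 0.0304%. Neither of these elements nor TATAAA matched in the windows of *Rcn2*, *Rcn3*, *Calu* and *Sdf4*, of which *Sdf4* has 4. A match is a description of letters in a window, and the absence of 1 says only that these letters are not there.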

How the data were processed

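The RNA of both lines was hybridised to 2 two-colour arrays with exchanged dyes. Spot and local background intensity was deposited by the authors without normalization, as Agilent Feature Extraction 10.7.3.1 had measured it. The deposited log10 ratio is Cy5 over Cy3 of the software's processed signals, and the series value table holds it rounded, not turned for the dyes. How the study chose its own genes is not given in the sources used here.

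Spots flagged as outliers were left out (143 and 176 of 43379), which kept 41164 of 41174 probes. With limma 3.58.1 in R 4.3.3, the mean signal was corrected by normexp (offset 50) and normalised by loess within each array. The log2 ratios computed from the deposited intensities were turned to B16F1-GFP-D over B16F1-GFP-M. Genes were named by accession through RefSeq (GRCm38.p6; 27192 of 28069 probes with a RefSeq accession matched), which was used for names, order and promoters, whereas probe positions were taken from the array files (mm9). Of the CREC genes, 4 were matched by accession. A gene was read from its brightest probe. Past 2-fold means at least 2-fold with the same sign on both arrays and a detected probe, which is a rule of size.

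The CREC genes and the lists were chosen with earlier results of these data known. Named genes are all CREC probes, the 5 genes nearest to *Rcn3*, genes of each list past 2-fold or otherwise the highest and lowest, and neighbours past 2-fold or otherwise the nearest; *Calr*, *Pcsk6* and the cell type markers were named besides, and some genes that the rule selects are not reported here. A lower bound for a gene dim in 1 line was taken after loess and Aquantile scaling. The alternatives were other background corrections, normalizations, ratios, filters, fold limits, probe rules and each array alone. The procedure was tested on simulated data, in which changes were placed only in probes brighter than either *Rcn3* probe. That test therefore says nothing about ratios of probes as dim as these. Python 3.11.15 with pandas 2.3.3, numpy 2.4.6 and matplotlib 3.10.9 made tables and figures. The B16F1-GFP-DB lines were not analysed here.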

Additional observations from a re-analysis of the deposited data

How the results depend on the processing

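The number of CREC genes past 2-fold was 1 under each of the 13 alternatives. That gene is *Rcn3*, which was chosen with its ratio known. The alternatives counted in this section are not all separate checks. Aquantile scaling left the log2 ratios unchanged, and the series value table holds the scanner software's log ratio rounded. The mean log2 ratio of the brighter *Rcn3* probe, 2.85, moved to 3.76 with the log ratio of the scanner software, 3.75 with the series value table, 3.60 with a normexp offset of 0 and 2.27 as the median over its probes. The maternal signal of *Rcn3* was 1.96 to 2.84 times its local background, and the cause of these shifts was not tested. The dimmer *Rcn3* probe ranged from 1.58 to 3.32. *Calu* ranged from 0.37 to 0.71 over its probes and *Sdf4* from -0.26 to -0.03 over its 2 detected probes. *Rcn1* (-0.29 to 0.08) and *Rcn2* (-0.07 to 0.27) each kept their sign in 7 of 8 alternatives, with the exceptions of median centring and of array 1 alone. Median centring moved the median of all detected genes to -0.86 on array 1 and 1.02 on array 2, but to 0.07 in the mean. Of the list medians, those of the calcium pumps and channels and of the binding partners turned on array 1 alone, and the others kept their sign in 11 of 11 alternatives. The setting of array 1 alone takes every gene well above background on that array. The genes of a list can therefore differ from the detected ones, and the turn is not that of a fixed set. No paired analysis was possible because there is 1 replicate of each line. The median signal of a channel was 1.66 to 2.60 times its local background, which limits ratios of dim probes.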

Other observations

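EF-hand proteins of the cytosol, which share the calcium-binding loop with the CREC family but not its compartment, were read from a list of 15 genes, of which 14 were detected. On both arrays 8 were higher in B16F1-GFP-D and 4 lower, beside 41% and 42.8% of all detected genes. Their median log2 ratio was 0.29, and it was 0.16 on array 1 alone and 0.13 without the filter on dim probes or with genes measured in both lines. At least 2-fold higher were 3 genes, beside 3.09% of all detected genes. None was at least 2-fold lower, beside 1.94% of all detected genes. Among the 3 were *S100a6* with a mean log2 ratio of 1.89 ± 0.29 (SD between arrays) and *S100a4* with 1.63 ± 0.03 (SD between arrays). With the log ratio of the scanner software the mean log2 ratio of *S100a6* was 3.102. *S100a4* and *S100a6* encode small calcium sensors of the S100 family. The lowest value was -0.47 for *S100a1*.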
